A study of Mus musculus with 3 samples.

Results

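The ligands of the tumour necrosis factor (TNF) superfamily described here are 10 protein-coding genes chosen by symbol, Tnf, Lta, Ltb, Tnfsf8, Tnfsf9, Tnfsf10, Tnfsf12, Tnfsf13, Tnfsf13b and Tnfsf14, out of 55536 annotated mouse genes, of which 22028 are protein-coding. All 10 had a row in every library. Macrophages grown from the bone marrow of C57BL/6J mice were fractionated, and the RNA that stayed with chromatin was depleted of ribosomal RNA and sequenced. The 3 libraries form a single group: the cells received Lipid A, the lipid anchor of lipopolysaccharide and a ligand of Toll-like receptor 4, at 100 ng/ml for 12 h, were washed and left for 12 h, and received 100 ng/ml of Lipid A again for 40 min. Unstimulated cells, cells stimulated a single time and other RNA fractions are not analysed here, so no level below can be read as induced or repressed. The labels list age and sex as not collected. They call the libraries biological replicates 1, 2 and 3 but give them the same donor entry, so the spread between them may be partly technical. Each library was made from another amount of RNA, replicate 1 from 1 µg, replicate 2 from 250 ng and replicate 3 from 500 ng, so input and library cannot be told apart.

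TNF superfamily ligands are made as membrane proteins that assemble into trimers, and many are cut from the cell surface to act at a distance on receptors of the TNF receptor superfamily. The receptors signal through adaptor proteins to nuclear factor kappa B (NF-kappa-B), to mitogen-activated protein kinases or, where they carry a death domain, to caspases. In macrophages Tnf is a textbook early target of Toll-like receptor signalling, and its mRNA is short-lived because decay proteins bind AU-rich elements in it. RNA held on chromatin is largely nascent or newly made, so a level in this fraction lies closer to transcription than a level in whole cells does.

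The libraries held 13802716, 17187524 and 16502809 expected counts over annotated genes, and the 3 pairs of libraries differed well beyond counting noise, so none is a copy of another. Levels are given in TPM, the deposited measure of relative transcript abundance. It is corrected for transcript length, so the annotated transcripts of different genes can be compared, but introns outside those transcripts are not counted. All 10 macrophage markers examined were detected, led by Adgre1 at 368 TPM ± 35.6, Lyz2 at 203 TPM ± 34.5 and Csf1r at 180 TPM ± 17.5 (SD, n = 3). Of the 8 T cell markers, Cd3d, Cd3e and Cd3g were listed at 0 in all 3 libraries of the gene tables, while Cd4 and Cd28 were detected. The summed T cell marker level was 14 to 21.9 TPM against 1120 to 1254 TPM for the macrophage markers. A B cell marker, Cd22, was detected out of 6, and none of 5 natural killer cell or 7 neutrophil markers was. Dendritic cell markers were detected for 2 of 6 genes (4.02 to 8.97 TPM summed), and fibroblast markers for 3 of 5 (0.02, 0.97 and 1.78 TPM summed in replicates 1, 2 and 3). The tables made directly from the reads, described below, detected more of these markers. They hold more counts, 21006413, 30933271 and 28138803, and detected more genes in general. By the same minimum 66.9% of all protein-coding genes were detected in them, against 49.7% in the gene tables. There 5 of the 8 T cell genes passed, 2 of the 6 B cell genes, 2 of the 5 natural killer genes, 1 of the 7 neutrophil genes, 4 of the 6 dendritic genes and all 5 fibroblast genes. In them Cd3d had 475 counts on average, Klre1 153, Mpo 63.8 and Col1a1 178. In bulk RNA fewer cells of a type and less RNA per cell cannot be told apart.

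Most of the ligand TPM went to Tnf, the founding cytokine of the family, and Tnfsf9, the ligand of the costimulatory receptor CD137. Together they made up 97.1% ± 0.831 of the summed TPM of the 10 ligands (SD, n = 3). The 10 genes span from 1882 bases (Ltb) to 32606 bases (Tnfsf13b), with Tnf at 2627 and Tnfsf9 at 2433. Because most intron RNA is not counted, the share of each gene in all ligand RNA on chromatin was not measured. Tnf stood at 506 TPM ± 139 and Tnfsf9 at 171 TPM ± 117, 5 further ligands lay between 1 and 10 TPM, and Lta, Tnfsf14 and Tnfsf8 lay under 1 TPM. A gene was counted as detected where its mean over the libraries was at least 10 expected counts. By that rule 7 of the 10 ligands were detected, against 49.7% of all protein-coding genes (10952 of 22028). The median level of the 10 ligands was 2.48 TPM against 0.44 TPM over all protein-coding genes, and their median percentile among those genes was 62.7. Of the 22028 genes 6966 had no count in any library. Ranked among detected genes alone, the detected ligands had a median percentile of 39.7, below the middle.

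**Figure D1:**
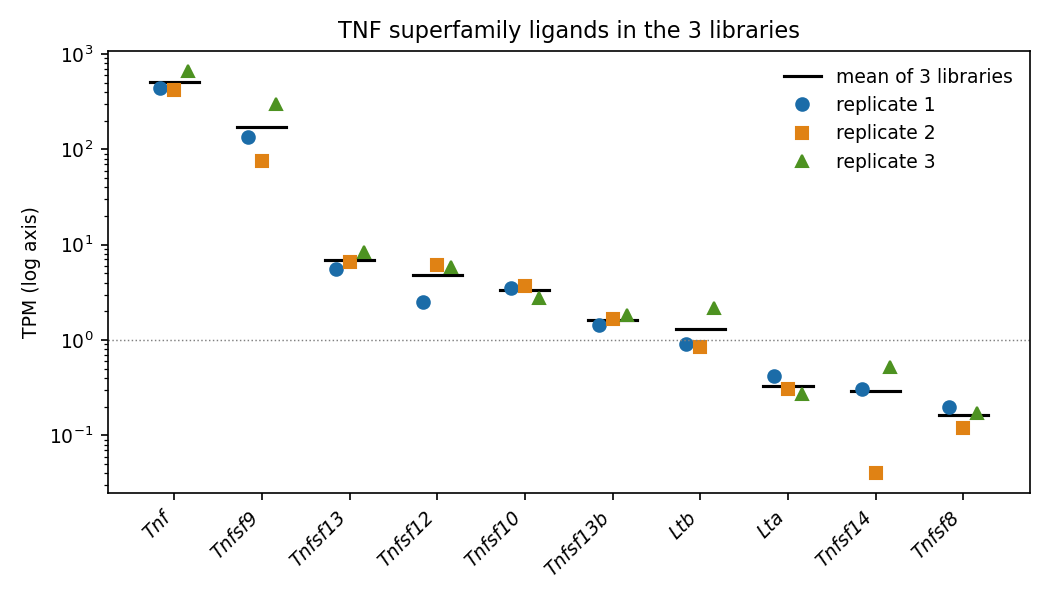
Level of each of the 10 ligands in each library (points, TPM on a log axis) with the mean of the 3 libraries (bar) and a dotted line at 1 TPM. Tnf and Tnfsf9 sit at 75.5 TPM or more in all 3 libraries, and no other ligand passes 8.37 TPM in any.

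Ordered by mean level, the ligands ran Tnf, Tnfsf9, Tnfsf13, Tnfsf12, Tnfsf10, Tnfsf13b, Ltb, Lta, Tnfsf14 and Tnfsf8. The ranges over the 3 libraries did not overlap for 4 of the 9 neighbouring pairs: Tnf above Tnfsf9, Tnfsf9 above Tnfsf13, Tnfsf10 above Tnfsf13b, and Ltb above Lta. The other 5 pairs overlapped, so the order within each was not resolved. They were Tnfsf13 and Tnfsf12, Tnfsf12 and Tnfsf10, Tnfsf13b and Ltb, Lta and Tnfsf14, and Tnfsf14 and Tnfsf8. Among ligands not next to each other, the range of Tnfsf13 (5.62 to 8.37 TPM) lay above that of Tnfsf10 (2.77 to 3.65 TPM). The range of Lta (0.27 to 0.42 TPM) lay above that of Tnfsf8 (0.12 to 0.20 TPM), both from few counts.

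Ltb, Tnf and Lta lie side by side on chromosome 17 within 10913 bases, in the major histocompatibility complex, and the sequences just upstream of their starts are shown because these neighbours differed so widely in level. They are taken from RefSeq on build GRCm38.p6, which is the mm10 assembly of the deposited tables, and are written 5′ to 3′ on the strand of the gene. Capitals mark a TATA box (TATAAA) in Tnf and Lta and a match to the kappa-B consensus, the site type bound by NF-kappa-B, in Ltb. The Ltb sequence stops where GENCODE places the first base of its transcript.
Tnf, chr17:35202008-35202257, minus strand: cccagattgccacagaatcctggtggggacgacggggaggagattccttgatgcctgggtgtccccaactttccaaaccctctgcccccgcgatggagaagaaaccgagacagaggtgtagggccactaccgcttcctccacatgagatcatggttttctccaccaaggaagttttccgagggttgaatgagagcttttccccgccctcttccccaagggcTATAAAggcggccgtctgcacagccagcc
Lta, chr17:35205352-35205601, minus strand: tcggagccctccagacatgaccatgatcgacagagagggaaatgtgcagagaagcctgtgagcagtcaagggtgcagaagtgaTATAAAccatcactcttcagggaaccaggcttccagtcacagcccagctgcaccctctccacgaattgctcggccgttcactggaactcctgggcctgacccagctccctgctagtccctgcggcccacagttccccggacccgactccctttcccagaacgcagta
Ltb, chr17:35194257-35194438, plus strand: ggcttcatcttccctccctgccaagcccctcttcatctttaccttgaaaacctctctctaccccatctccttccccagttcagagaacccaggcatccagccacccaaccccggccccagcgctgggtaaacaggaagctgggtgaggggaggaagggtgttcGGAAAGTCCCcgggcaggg

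The TATA box of Tnf lay 29 to 24 bases before its start, and the same letters in Lta lay 167 to 162 bases before the start. On either strand, TATAAA occurred in 12.4% of all 32817 upstream windows of 250 bases in the same RefSeq table. The kappa-B match of Ltb was on the strand opposite to the gene, 87 to 78 bases before the RefSeq start, and such a match occurred in 7.25% of the windows. Tnfsf9 and Tnfsf12 are not in the table used. Among the 8 ligands that are, Ltb held the only kappa-B match, and the AP-1 motif TGANTCA was present in Tnfsf13, Tnfsf13b and Tnfsf14 (6.75% of all windows). The core of the interferon-stimulated response element, GAAANNGAA, was present in Tnfsf8 and Tnfsf13b (7.12%), the ETS core GGAAGT in Tnf alone (19.7%), and the cyclic AMP response element TGACGTCA in none (1.55%). The AP-1 match of Tnfsf13 and the AP-1 and GAAANNGAA matches of Tnfsf13b lay before a RefSeq start but inside the gene as GENCODE places it. Another window of Tnfsf13b, the 250 bases before its GENCODE start, held none of these motifs. These matches describe letters in the windows and do not show binding.

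Tnf (ENSMUSG00000024401.14, chr17:35199381-35202007, minus strand, mm10) encodes the pro-inflammatory cytokine TNF. Its level was 436 TPM in replicate 1, 417 TPM in replicate 2 and 667 TPM in replicate 3, from 8741, 8193 and 12338 counts. Replicate 3 was highest and replicate 2 lowest. The mean was in the 99.8th percentile of protein-coding genes. Each library has 2 quantifications: gene-layout tables made from an alignment to the transcriptome, used throughout unless stated, and tables made directly from the reads. The only transcript of Tnf with a share in the gene-layout tables was Tnf-201, of 4 exons and 1639 bases, and in the tables made directly from the reads it held 99.97% of the Tnf TPM.

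Lta encodes lymphotoxin alpha, which is secreted as a trimer with itself or held at the membrane by lymphotoxin beta. Its gene (ENSMUSG00000024402.5, chr17:35203165-35205351, minus strand) starts upstream of Tnf on the same strand, with 1157 bases between the end of the one and the start of the other. It gave 0.42, 0.31 and 0.27 TPM in replicates 1, 2 and 3, from 7, 5 and 4 counts (exact Poisson 95% intervals 2.81 to 14.4, 1.62 to 11.7 and 1.09 to 10.2 counts, which cover counting error only). Tnf was 1039, 1344 and 2469 times as high as Lta in TPM in the 3 libraries. At these counts no difference between libraries in Lta was detectable.

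Ltb encodes lymphotoxin beta, the membrane partner of lymphotoxin alpha in the ligand of the lymphotoxin beta receptor. The gene (ENSMUSG00000024399.5, chr17:35194439-35196320, plus strand) lies on the other side of Tnf, 3060 bases away and on the opposite strand. Its level was 0.92, 0.85 and 2.18 TPM from 15, 13 and 25 counts, and replicate 3 was highest, as for Tnf. Tnf exceeded Ltb by 474, 490 and 306 times. Beyond the 3 ligands, the closest protein-coding genes within 30 kb were Lst1 at 20.7 TPM ± 6.64 and Nfkbil1 at 10.1 TPM ± 1.89. By mean TPM, Tnf was the highest gene of its neighbourhood and its 2 sister ligands the lowest protein-coding genes. The range of Ltb overlapped that of the next lowest, Gm16181 (2.94, 1.15 and 3.09 TPM), so the order of those 2 was not resolved.

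**Figure D2:**
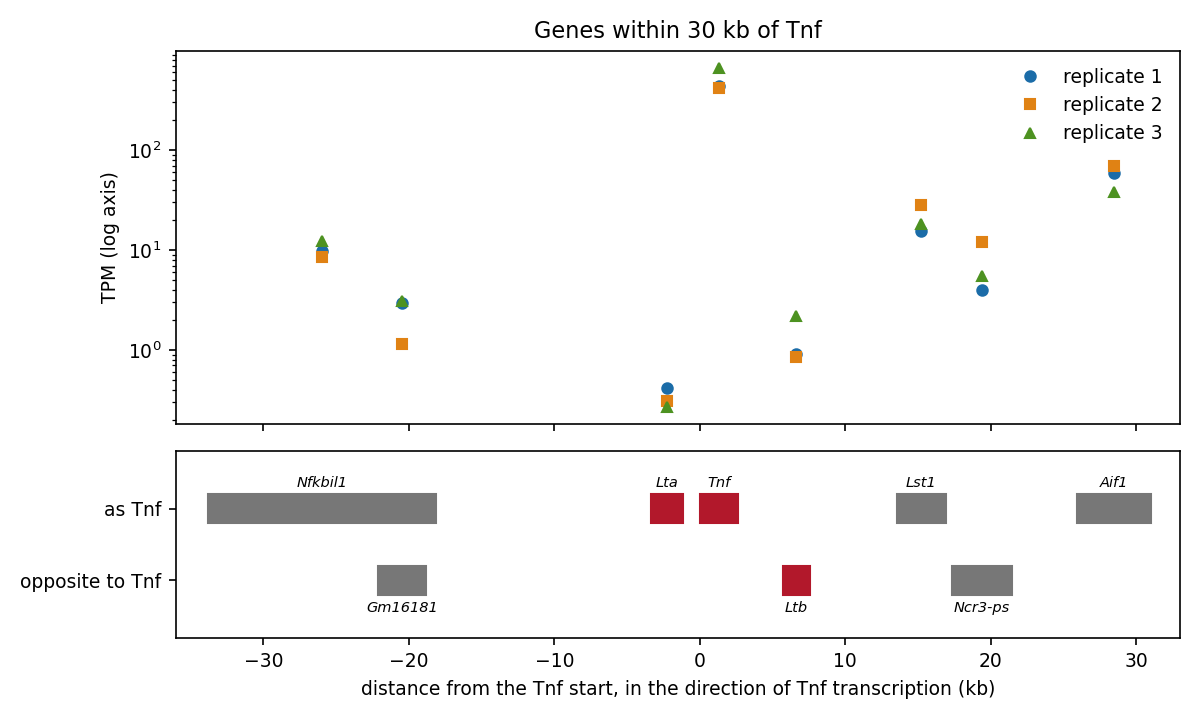
Upper panel: level in each library (points, TPM on a log axis) of the protein-coding genes and 1 pseudogene within 30 kb of Tnf, placed at the middle of each gene; lower panel: the genes to scale by distance from the Tnf start, by strand, with the 3 ligands in red. Tnf stands at 417 TPM or more in every library between Lta (under 0.5 TPM) and Ltb (under 2.2 TPM).

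Tnfsf9 (ENSMUSG00000035678.8, chr17:57105325-57107757, plus strand) encodes the CD137 ligand, which acts on T cells and signals back into the cell that carries it. It gave 135 TPM in replicate 1, 75.5 TPM in replicate 2 and 302 TPM in replicate 3, from 2044, 1107 and 4176 counts. Each library stood apart from the others by far more than counting error, and replicate 3 was again the highest. The ratio of Tnf to Tnfsf9 in TPM was 3.24, 5.52 and 2.21, so Tnf was the higher of the pair in every library. A single transcript, Tnfsf9-201, is annotated. Its first part overlaps the long non-coding RNA Gm11110 on the opposite strand, and 12.9% of the words of 31 bases in Tnfsf9 also occur in Gm11110 when strand is ignored. Gm11110 held 65.7 counts on average against 2442 for Tnfsf9, and whether the counting used strand is not given in the sources used here.

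Tnfsf14 encodes LIGHT, a ligand of the herpesvirus entry mediator and of the lymphotoxin beta receptor, and lies 81734 bases beyond Tnfsf9 (ENSMUSG00000005824.7, chr17:57189492-57194177, minus strand), with Cd70 between them. It gave 0.31, 0.04 and 0.52 TPM from 7, 1 and 11 counts, with intervals of 2.81 to 14.4, 0.0253 to 5.57 and 5.49 to 19.7 counts. Cd70, the ligand of CD27, stood at 0.2 TPM ± 0.0781. Tnfsf8, the CD30 ligand (ENSMUSG00000028362.2, chr4:63831308-63861347, minus strand), had the lowest mean TPM, with 0.20, 0.12 and 0.17 TPM from 10, 6 and 8 counts, but it was not the lowest in replicate 2. All 3 intervals of Tnfsf8 overlapped, with bounds from 2.2 to 18.4 counts.

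Tnfsf13 encodes APRIL, a survival factor for plasma cells, and Tnfsf12 encodes TWEAK, the ligand of the receptor Fn14. The genes follow each other on the minus strand of chromosome 11, Tnfsf12 first (ENSMUSG00000097328.7, chr11:69686250-69695849) and Tnfsf13 465 bases after its end (ENSMUSG00000089669.7, chr11:69682846-69685784). An annotated read-through gene, Tnfsfm13 (chr11:69682577-69696098), joins exons of both. The sequence across its joint is shown because reads over such joints separate the read-through from the single genes. The bases inside the Tnfsf12 gene are in lower case and those inside the Tnfsf13 gene in capitals, and the joint skips 1826 bases between chr11:69685130-69686957.
Tnfsfm13-203, across the joint, minus strand: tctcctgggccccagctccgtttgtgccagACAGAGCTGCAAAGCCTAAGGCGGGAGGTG

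Tnfsf13 stood at 5.62, 6.60 and 8.37 TPM from 95.4, 110 and 132 counts, and Tnfsf12 at 2.53, 6.17 and 5.82 TPM from 43.5, 103 and 91.9 counts. Tnfsf13 was the higher in all 3 libraries of the gene-layout tables, although the ranges overlapped. In the tables made directly from the reads the order of the means turned, with Tnfsf12 at 7.32 TPM and Tnfsf13 at 6.20 TPM. The turn came from replicate 2, where Tnfsf12 had 12.0 TPM and Tnfsf13 6.08 TPM. Tnfsf13 stayed the higher in replicate 1 (5.55 against 5.02 TPM) and in replicate 3 (6.96 against 4.91 TPM). Tnfsfm13 reached 2.86, 4.38 and 6.27 TPM from 81.1, 121 and 162 counts. Of the words of 31 bases, 47.4% of those of Tnfsf12 and 58.4% of those of Tnfsf13 also occur in Tnfsfm13. The division of reads among the 3 genes is therefore an estimate: 24.8% ± 5.65 of their summed counts went to Tnfsf12, 36.8% ± 5.72 to Tnfsf13 and 38.4% ± 3.18 to Tnfsfm13 (SD, n = 3). The deposited standard deviation of this assignment was between 2.37 and 7.18 counts per gene and library. The summed counts of the 3 genes, which do not depend on the division among them, were 220, 334 and 386.

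The transcript tables divided Tnfsf12 in different ways. In the gene-layout tables Tnfsf12-202, of 1435 bases, took all reads in every library. In the tables made directly from the reads Tnfsf12-201, a short annotated transcript of 331 bases, took 46.2% and 54.7% of the TPM in replicates 1 and 2 and 0% in replicate 3. From 6.25 and 24 counts it accounted for 2.32 and 6.58 TPM, and the SD of the Tnfsf12 level in those tables was 4.09 TPM, against a level of 4.84 TPM ± 2.01 in the gene-layout tables. Tnfsf13 was steadier, with Tnfsf13-201 at 79.8% ± 7.65 in the first and 69.8% ± 5.47 in the second, and Tnfsf13-202 holding the rest.

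Tnfsf10 encodes TRAIL, which triggers apoptosis through a death receptor, and is a known interferon-induced gene in macrophages (ENSMUSG00000039304.11, chr3:27317028-27342427, plus strand). It gave 3.53, 3.65 and 2.77 TPM from 236, 247 and 165 counts. Replicate 3, the highest library for Tnf, Tnfsf9 and Ltb, was the lowest for Tnfsf10. Tnfsf10-201 held 97.7% ± 3.96 of its TPM in the gene-layout tables and 81.5% ± 11.6 in the tables made directly from the reads, where the shorter Tnfsf10-202 held 18.5% ± 11.6.

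Tnfsf13b encodes BAFF, the survival factor of B cells (ENSMUSG00000031497.9, chr8:10006467-10039072, plus strand). Its level was the most even of the ligands between 1 and 10 TPM, at 1.43, 1.66 and 1.83 TPM from 26, 35 and 29 counts. Most of that signal was not assigned to protein-coding transcripts: 94.0% ± 4.12 of the Tnfsf13b TPM was in transcripts of other classes (retained intron, nonsense-mediated decay or processed transcript), and 70.4% ± 17.5 in the retained-intron transcripts Tnfsf13b-204 and Tnfsf13b-206. The share of retained-intron transcripts was 90.2%, 57.0% and 64.1% in replicates 1, 2 and 3. Both coding transcripts together held the small remainder, although the gene is listed as protein-coding. The counts behind these shares were small, 14.1, 13.7 and 9.93 for Tnfsf13b-204 and 7.28, 3.87 and 6.46 for Tnfsf13b-206. In the tables made directly from the reads the share outside coding transcripts was 97.7%, 76.5% and 98.1%. There the coding transcript Tnfsf13b-201 took 19.8% in replicate 2.

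Ltb was the other ligand with an annotated retained-intron transcript, Ltb-202, which held 81.5%, 67.1% and 40.2% of its TPM, or 62.9% ± 21 (SD, n = 3). The counts behind these shares were small, 12.8, 9.37 and 13.6 for Ltb-202. In replicate 3 the coding transcript Ltb-203 took 59.8%, after 0% in replicates 1 and 2. Over the 6289 protein-coding genes that have such a transcript and a mean of at least 1 TPM, the median retained-intron share was 41.9%, with quartiles of 26.2% and 57.9%. The mean of Tnfsf13b was above the upper quartile, with replicate 2 below it. That of Ltb was above it too. The Ltb share was 53.6% without replicate 1 and 48.7% in the tables made directly from the reads, both lower than that quartile. The quartiles are of means over all 3 libraries in the gene-layout tables. They were not computed for fewer libraries or for the direct tables, so the place of a gene in those settings is not known. The remaining 8 ligands have no annotated retained-intron transcript, so reads from their introns enter neither table unless another annotated transcript covers them.

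The ends of the introns kept in Ltb-202 (338 bases, chr17:35195366-35195703) and in Tnfsf13b-206 (83 bases, chr8:10031423-10031505) are shown because reads over them come from RNA that still holds the intron. Chromatin RNA includes transcripts not yet fully spliced. Such reads therefore cannot tell a retained-intron transcript from a coding one before splicing, and the shares above carry the same limit. The sequences are taken from the GENCODE M21 transcripts, on the plus strand, and capitals mark the first and last pair of bases of each intron.
Ltb-202, 5′ end of the intron: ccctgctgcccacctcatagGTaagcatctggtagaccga
Ltb-202, 3′ end of the intron: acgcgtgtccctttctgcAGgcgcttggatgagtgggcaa
Tnfsf13b-206, 5′ end of the intron: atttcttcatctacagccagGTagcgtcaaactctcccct
Tnfsf13b-206, 3′ end of the intron: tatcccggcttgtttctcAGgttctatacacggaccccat
Both introns begin with GT and end with AG in these sequences, the usual splice-site letters. In the tables made directly from the reads the mean retained-intron share was lower for both genes, with an SD of 13.2 for Ltb, and at 60.5% ± 18.1 for Tnfsf13b.

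**Figure D3:**
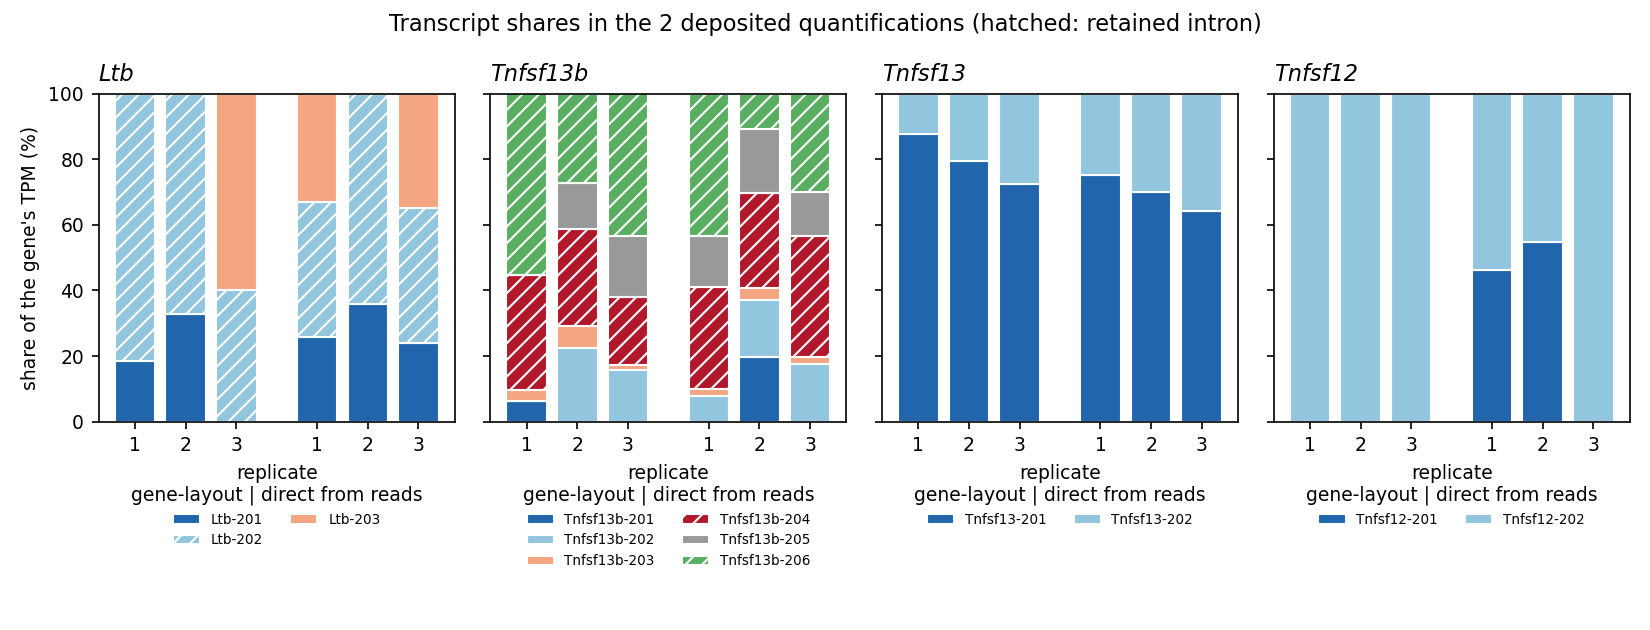
Share of each gene's TPM held by each annotated transcript (stacked bars, percent) in replicates 1 to 3, in the gene-layout tables (left 3 bars) and the tables made directly from the reads (right 3 bars); hatching marks retained-intron transcripts. Tnfsf12-201 has no share in the first 3 bars of Tnfsf12 and 46.2% and 54.7% in the direct tables of replicates 1 and 2.

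The libraries were then compared gene by gene, to ask whether a ligand differed between them by more than counting alone allows. edgeR's likelihood ratio test with a dispersion of 0 was run over the 14330 genes that averaged 10 or more counts, with Benjamini-Hochberg adjustment. The test compares these libraries, not conditions. Of the 7 ligands tested, 4 differed at an adjusted p under 0.05, against 55.5% of all genes tested (7948 of 14330), which is a share of similar size. Levels below are library-scaled counts (CPM, scaled by edgeR's TMM factors), which are not corrected for length and serve only to compare libraries within a gene.

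Tnfsf9 had the widest spread of the 7 ligands tested, at 149, 60.5 and 268 CPM in replicates 1, 2 and 3. The highest library was 4.42 times the lowest, and 272 of the 14330 genes (1.90%) had a wider ratio. Its coefficient of variation beyond counting was 0.381, in the 96.8th percentile of the genes tested, whose median was 0.221. This is edgeR's biological coefficient of variation, which is drawn toward that of other genes. Without replicate 2 the coefficient of Tnfsf9 was 0.173 and without replicate 3 it was 0.213. In the tables made directly from the reads it was 0.377, and Ltb (0.379) and Tnfsf14 (0.398) were slightly higher. Its p-value was too small for the software to represent, as was that of Tnf.

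Tnf stood at 638, 448 and 791 CPM, a ratio of 1.77 between the highest and the lowest library, where the median ratio over all genes tested was 1.42. A wider ratio was found for 25.7% of the genes. Its coefficient of variation of 0.224 was close to the median of all genes, 0.221, and DESeq2's gene-wise estimate was 0.285. Without replicate 2 the coefficient was 0.136.

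The libraries had another order for Tnfsf10, at 17.2, 13.5 and 10.6 CPM, with a ratio of 1.63 (edgeR adjusted p = 2.93e-05). Without replicate 1 the edgeR adjusted p was 0.0596. Tnfsf12 had 3.14, 5.63 and 5.90 CPM, a ratio of 1.88 (edgeR adjusted p = 0.00171), and replicate 1 was the low library. Without replicate 1 its edgeR adjusted p was 0.731 and its ratio on the log2 scale moved from 0.91 to 0.10.

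Tnfsf13 (6.93, 6.01 and 8.46 CPM, edgeR adjusted p = 0.0513) and Ltb (1.09, 0.71 and 1.60 CPM, edgeR adjusted p = 0.0821) did not pass. Ltb passed without replicate 1 (edgeR adjusted p = 0.0292), as did Tnfsf13 (edgeR adjusted p = 0.0130). Tnfsf13b was the ligand with the smallest ratio, 1.03, at 1.90, 1.91 and 1.86 CPM (edgeR adjusted p = 0.995), and the 30 counts per library limit how small a difference could be seen in it. Its edgeR coefficient of variation was still 0.240, while DESeq2's gene-wise estimate was 0.0001.

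Replicate 3 was the highest library for 5 of the 7 ligands tested, Tnf, Tnfsf9, Ltb, Tnfsf12 and Tnfsf13, against 29.9% of all genes tested (4280 of 14330). The highest library of Tnfsf12 was replicate 2 under scaling by total counts and in the fit of the tables made directly from the reads. Replicate 2 was also its highest in TPM (6.17 against 5.82 in replicate 3) and in direct TPM (12.0 against 4.91). The 5 genes are not independent, because Tnfsf12 and Tnfsf13 share reads with the same read-through gene. Replicate 3 had neither the largest RNA input nor the largest total count. The summed level of the macrophage markers was 1120, 1254 and 1159 TPM in replicates 1, 2 and 3. These sums are not on the CPM scale used here for the ligands. Protein-coding genes held 27.5%, 30.8% and 32.0% of all TPM in the 3 libraries, so the sums need not rank the libraries as that scale would. The part that these differences between libraries play in the ligand levels was not tested.

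**Figure D4:**
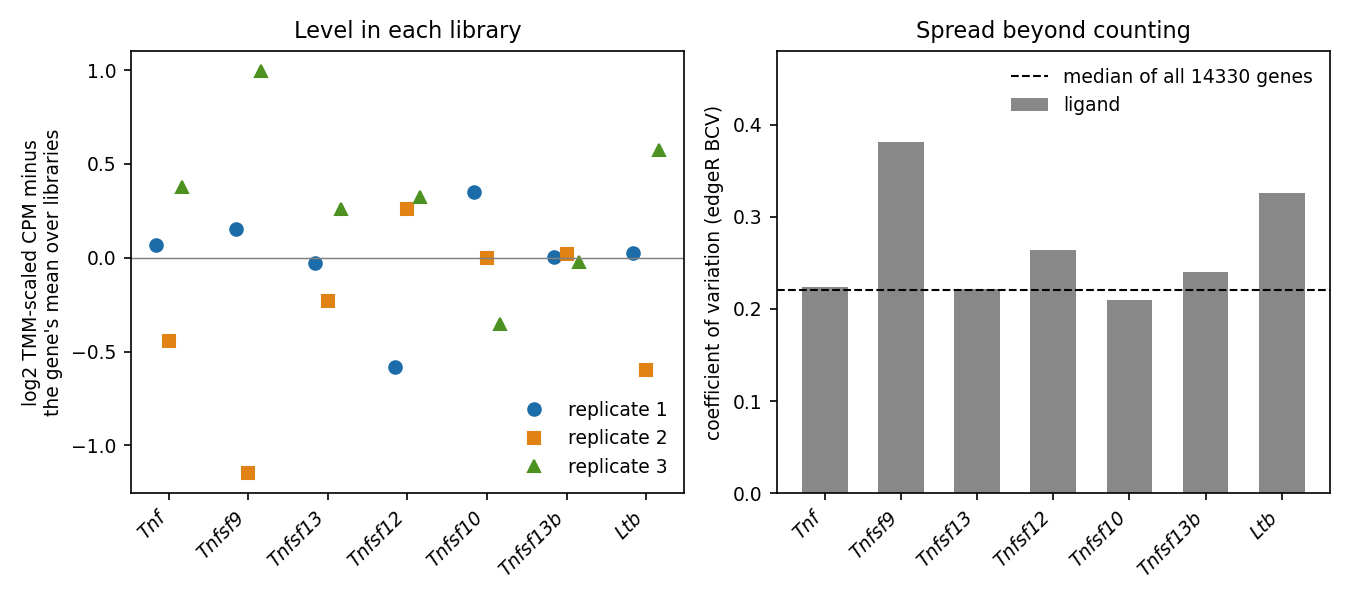
Left: log2 of the TMM-scaled CPM of each of the 7 tested ligands in each library, minus the mean of the gene over the libraries; right: edgeR's biological coefficient of variation of each (bars), with the median of all 14330 genes tested (dashed). Tnfsf9 has the widest spread of the 7 ligands and Tnfsf13b the narrowest ratio between libraries.

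Of the 8 other ligands of the superfamily, 1 was detected, Tnfsf15, which encodes TL1A. It stood at 4.95 TPM ± 1.27 (5.73, 3.49 and 5.64 TPM), a level between Tnfsf13 and Tnfsf10. Tnfsf4, the OX40 ligand, was next at 0.387 TPM ± 0.369, and Cd70 followed. The tables made directly from the reads detected 3 of the 8, Tnfsf15, Tnfsf4 with 11.7 counts and Eda with 16.1 counts on average, and there Eda (1.39 TPM) stood above Tnfsf4 (0.323 TPM). Cd40lg, the CD40 ligand of activated T cells, and Tnfsf11, the osteoclast factor RANKL, were listed at 0 in all 3 libraries of both tables, which allows up to 0.217, 0.175 and 0.182 CPM in the gene-layout tables of replicates 1, 2 and 3 (3 counts in each library).

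Of the 14 receptors of the 10 ligands, 9 were detected. For the TNF receptors, Tnfrsf1b stood at 147 TPM ± 38.8 (129, 121 and 192 TPM) and Tnfrsf1a, the death-domain receptor, at 23.1 TPM ± 3.64 (20.95, 27.3 and 21.1 TPM). The highest library was replicate 3 for Tnfrsf1b and replicate 2 for Tnfrsf1a. The LIGHT receptor Tnfrsf14 reached 78.7 TPM ± 19.7, while its ligand Tnfsf14 was under 1 TPM. The lymphotoxin beta receptor Ltbr stood at 4.69 TPM ± 1.49, and Tnfrsf8, the receptor of Tnfsf8, at 1.81 TPM ± 0.373.

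Tnfrsf9, the receptor of Tnfsf9, was not detected in the gene-layout tables, with 1, 0 and 0 counts. The tables made directly from the reads gave it 23.9 counts on average. The TRAIL death receptor Tnfrsf10b had 5, 17 and 11 counts in the gene-layout tables and 409 on average in the direct ones. The BAFF receptor Tnfrsf13c had 1, 0 and 0 counts and 196 on average in the direct tables. Tnfrsf22, a decoy receptor of TRAIL, had 26.9 counts on average and 409 in the direct tables, and Ltbr had 15.4 TPM there. The level of these receptors thus depends on the quantification, by which 9 or 11 of the 14 were detected, and the cause of the difference was not tested. The share of all protein-coding genes detected was 49.7% and 66.9% in the same tables. The receptor TACI, Tnfrsf13b, which binds both APRIL and BAFF, had 2.67 TPM ± 0.136 and 3.47 TPM in the direct tables. Its gene-layout counts were 32, 87 and 45 in replicates 1, 2 and 3, which were less even than its TPM. Tnfrsf17, the other receptor that both bind, and Tnfrsf11b, a soluble decoy, were listed at 0 in the gene-layout tables, and the TWEAK receptor Tnfrsf12a had 2.67 counts on average.

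**Figure D5:**
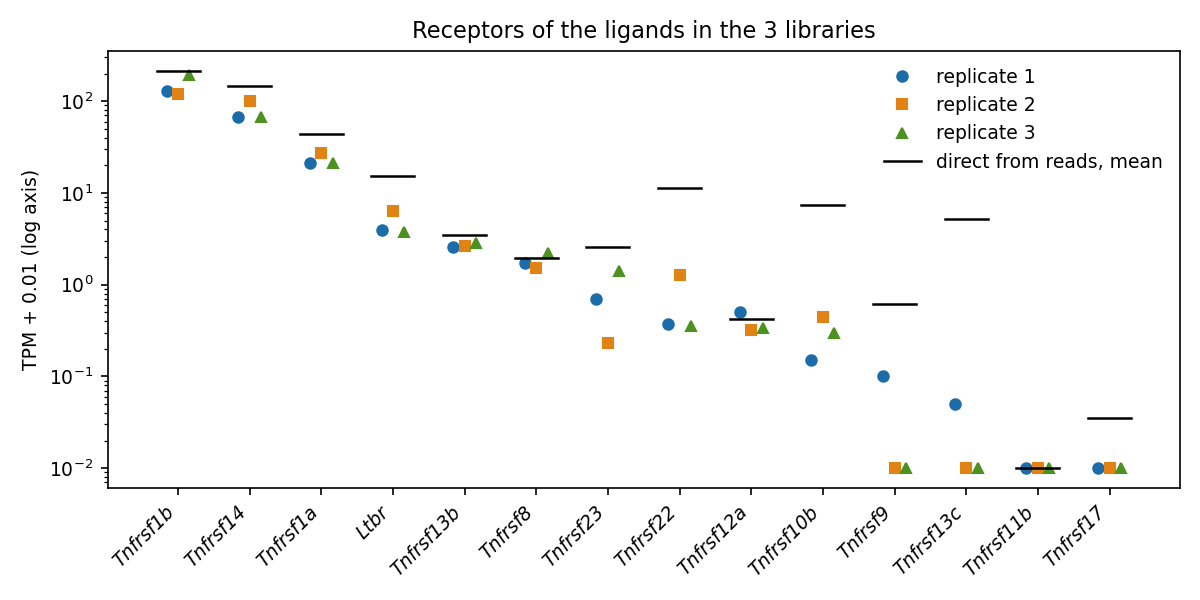
Level of the 14 receptors of the ligands in each library of the gene-layout tables (points) and mean level in the tables made directly from the reads (bars), as TPM plus 0.01 on a log axis. Tnfrsf1b, Tnfrsf14 and Tnfrsf1a lead, and the bars of Tnfrsf10b, Tnfrsf13c and Tnfrsf9 lie far above their points.

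All 7 proteases and cofactors that cut the ligands were detected. Adam17, the enzyme that releases TNF from the membrane, stood at 112 TPM ± 24 (125, 84.3 and 127 TPM). Rhbdf2, which brings ADAM17 to the cell surface, had 87.0 TPM ± 5.44, and Sppl2a, which cuts the membrane stub of TNF that is left behind, had 86.6 TPM ± 7.04. The 10 RNA-binding regulators of Tnf mRNA were all detected too. Zfp36 was the highest at 213 TPM ± 50.7 (185, 183 and 272 TPM). Its protein, tristetraprolin, binds the AU-rich element of Tnf mRNA and promotes its decay. Hnrnpd followed at 61.8 TPM ± 5.23 and Tia1 at 52.1 TPM ± 12.4. The median of the proteases was 33.7 TPM and that of the RNA-binding regulators 32.1 TPM, against 2.48 TPM for the 10 ligands and 0.712 TPM for the receptors.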

How the data were processed

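Per the labels, RNA of the chromatin fraction was depleted of ribosomal RNA and sequenced. The authors deposited, for each library, gene and transcript tables with expected counts and TPM made from a transcriptome alignment (the gene-layout tables), and a transcript table with estimated counts and TPM made directly from the reads. Per the file headers and library notes both use mm10 and GENCODE M21; the sources used here do not name aligner or program. Neither table counts introns outside annotated transcripts. Direct values were summed per gene.

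Expected counts were rounded for edgeR 4.0.16 in R 4.3.3 (TMM scaling, likelihood ratio test with dispersion 0, a minimum mean of 10 counts, Benjamini-Hochberg), which was tested on simulated data. DESeq2 1.42.0 supplied alternatives. Entries naming no annotated gene held 1.13%, 0.324% and 0.279% of counts and were left out. Intervals are exact Poisson at 95%. All 10 ligands, transcripts with at least 10% of a ligand's TPM, and the 3 highest genes or paired receptors of each linked list were named; Eda, the markers given with direct counts and the neighbouring genes of Tnf were named after their values were seen. The ligands and lists were chosen with earlier results of these data known. Alternatives were another quantification, scalings, thresholds and leaving out each library.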

Additional observations from a re-analysis of the deposited data

How the results depend on the processing

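No paired analysis was possible because all 3 libraries belong to 1 group. The number of ligands detected was 7 with each library left out and at a minimum of 1 TPM, 9 in the tables made directly from the reads (Tnfsf8 and Tnfsf14 added) and 10 at a minimum of 5 counts. The share of all protein-coding genes detected was 48.8% to 50.2% with a library left out, 44.6%, 66.9% and 53.6% in these settings. The median percentile of the ligands was 62.7, and became 55.3 in the tables made directly from the reads and 39.7 when only detected genes, and so only the detected ligands, were ranked. Leaving out each library gave 62.0 to 63.6. Neighbouring pairs with ranges apart numbered 4 to 6 over all alternatives. The count of ligands that differed between libraries was 4 to 6 over all alternatives, while the share of all genes tested ran from 28.3% (without replicate 2) to 60.1% (total count scaling), with 43.7% without replicate 1 and 33.4% without a filter. The ligands changed: without replicate 1, Tnfsf10 and Tnfsf12 were lost and Ltb and Tnfsf13 gained. Tnfsf13 also passed with DESeq2 size factors (adjusted p = 0.0329, edgeR) and a chi-square test (adjusted p = 0.0496). In the direct tables Ltb (edgeR adjusted p = 0.000122) and Tnfsf14 passed, and without a filter Tnfsf14 did (edgeR adjusted p = 0.00947). With each table rescaled over protein-coding genes, the log2 difference of the direct level from the gene-layout level was -0.40 for Tnf, -0.30 for Lta and -0.05 for Tnfsf10. Without rescaling it was 0.04, 0.10 and 0.40, so the sign of these 3 depends on the scaling, while the other 7 ligands kept theirs under both scalings. With rescaling, leaving out replicate 2 turned Tnfsf12 from 0.20 to -0.20, Tnfsf14 from 0.04 to -0.11 and Tnfsf10 from -0.05 to 0.05. The mean TPM of Tnfsf9 was 105 without replicate 3 and 218 without replicate 2, and that of Tnfsf14 was 0.175 without replicate 3. DESeq2's gene-wise estimate of the variation of Tnfsf9 was 0.659 against 0.381. Counts under 12 per library limit what can be said of Lta, Tnfsf14 and Tnfsf8.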
